A study of Drosophila melanogaster with 135 samples.

Results

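CG32581 is a fruit fly gene on the X chromosome that encodes a RING-type ubiquitin ligase, and its transcript was absent, or all but absent, from muscle and heads of esc E(z) double mutants while it was present in every other group. The gene was found by its symbol in the gene name column of 14 tables of polyadenylated RNA, and by its identifier in the table that has no such column, as 1 of 17023 listed genes. It was chosen by its group means and their ratios in these same tables, for an on/off difference between stocks, so its levels and ratios are given as a description and no test of them was made. The tables compare mutants of Polycomb Repressive Complex 2 (PRC2), which places the repressive H3K27me3 mark on histones, with WT, and 30d-old with 3d-old WT.

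The tables rest on 60 libraries in 20 groups of 3, 11 groups of muscle and 9 of heads. All were from male flies raised at 25 °C, aged 30d except for 1 group of WT muscle at 3d, and each library came from 30 dissected muscles or 50 heads. The double mutants were esc289; E(z)239 and Pcl421; Su(z)12253. The single mutants were esc289, E(z)239, Su(z)12253, p55192 (muscle alone) and Pcl, whose 3 libraries of each tissue carry the names Pcl421, Pcl422 and Pcl423. WT was the line 5905 (w1118), to which the mutants had been backcrossed for 5 generations, and all groups share its w1118 marker. The mutants were CRISPR/Cas9 deletions studied as heterozygotes, and the double mutants carried one copy of each of both deletions. Each double mutant and the single mutants had a WT group of their own in each tissue, and the muscle WT group of Pcl Su(z)12 also served as the older group in the comparison of ages. The titles of the other muscle WT groups disagree with their descriptions on which mutants they belong to, and the titles were used here. No label ties the libraries to separate cultures, so the spread between libraries may be technical.

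Ubiquitin ligases with a RING domain join ubiquitin to proteins and so mark them for the proteasome. RefSeq names the gene sordd2 and its neighbor CG8974 sordd1. Both belong to the family of the human ligases RNF5 and RNF185, which sit in the membrane of the endoplasmic reticulum (ER) and act in ER-associated degradation, the disposal of misfolded proteins of that compartment. In the fly the pair is known for its effect on a misfolded mutant of the visual pigment rhodopsin.

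CG32581 (FBgn0052581) lies on the minus strand at chrX:15796908-15799162 of dm6, and CG8974 (FBgn0030693) on the same strand at chrX:15793721-15796028, with 879 bases between them. They stand in a tandem duplication. A block of 2817 bases at chrX:15796872-15799688, which holds CG32581 whole, matched chrX:15793685-15796571, which holds CG8974, at 94.8% of alignment columns. In RefSeq the coding sequences have 852 and 834 bases in 3 exons each and encode proteins of 283 residues for CG32581 and 277 residues for CG8974. Of 285 columns of the protein alignment, 255 were identical, and a RING pattern with the cysteine and histidine spacing of the C3HC4 type was found at residues 125 to 165 of both. The copies are near identical from the start codon on, as the first 150 coding bases show, from the minus strand at chrX:15798083-15798232 for CG32581 and chrX:15794913-15795062 for CG8974. The sequences are from the RefSeq genome of Release 6 (dm6), and capitals mark the only aligned position that differs.
CG32581: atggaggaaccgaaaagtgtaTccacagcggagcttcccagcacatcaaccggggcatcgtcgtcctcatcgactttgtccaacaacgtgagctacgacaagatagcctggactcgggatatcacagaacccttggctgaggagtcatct
CG8974: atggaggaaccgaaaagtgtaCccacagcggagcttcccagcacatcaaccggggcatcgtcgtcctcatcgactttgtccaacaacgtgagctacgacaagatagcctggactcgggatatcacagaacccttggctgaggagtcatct

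They part near the stop codon. The stretch of 150 alignment columns with most differences was the last of the coding sequence, with 59 differing columns, and it reaches from the second coding exon into the last one, at chrX:15797253-15797461 for CG32581 and chrX:15794101-15794291 for CG8974, the intron between them left out. This end is shown because reads from it can be assigned to 1 copy, and capitals mark bases that differ from the other copy or face a gap in it.
CG32581: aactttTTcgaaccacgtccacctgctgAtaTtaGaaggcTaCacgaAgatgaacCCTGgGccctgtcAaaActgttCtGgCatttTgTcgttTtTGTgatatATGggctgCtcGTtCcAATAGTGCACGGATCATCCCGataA
CG8974: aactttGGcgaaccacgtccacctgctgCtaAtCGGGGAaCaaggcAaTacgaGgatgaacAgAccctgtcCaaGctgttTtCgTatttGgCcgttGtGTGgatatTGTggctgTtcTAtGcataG

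The likeness of the copies limits what a read count can say. Of the 1428 distinct windows of 100 bases, the length of a read, in RefSeq transcripts of CG32581, 630 also occur in transcripts of CG8974 or elsewhere in the genome (44.1%), and 798 occur nowhere else. For CG8974, 792 of 2005 windows occur elsewhere (39.5%). Reads from shared windows cannot be told apart, so the counts of either gene rest on the remaining windows, and a level per gene is an underestimate.

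The tables list group means of normalized counts, that is, of read counts divided by a size factor that corrects for depth. The whole reads of the 3 libraries behind each mean were recovered from the digits of the mean, and for CG32581 exactly 1 set of reads fitted in each of the 20 groups. In esc E(z) muscle, 1 library had 1 read of CG32581, which is 0.826 normalized reads, and the other 2 libraries had 0, against 112, 132 and 130 normalized reads in the 3 WT libraries (92, 167 and 182 reads). The authors' means were 0.275 and 125. In esc E(z) heads, all 3 libraries had 0 reads, against 365, 357 and 337 normalized reads in WT heads (339, 353 and 358 reads), where the authors' mean was 353. The groups were far apart in both tissues, and a single read was found in the 6 libraries of the double mutant together.

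Some markers of photoreceptors were lower in esc E(z) muscle than in its WT muscle. The authors' mean of ninaE, the gene of the main rhodopsin, was 46.1 in esc E(z) muscle, against 193 in WT, that of Arr2 was 32.4, against 110, that of ninaC 7.06, against 19.2, and that of trp 9.47, against 17.7. The 3 other listed head markers, norpA, elav and nSyb, had 330, 172 and 829 in esc E(z) muscle, against 335, 167 and 882 in WT. In heads, ninaE had 178556 in esc E(z), against 185448 in WT. Also lower there were norpA (9249 against 9678), elav (719 against 865) and nSyb (7327 against 7366). Higher were Arr2 (84760 against 80832), ninaC (17649 against 16372) and trp (17381 against 16027). The part of these cells in the muscle level of CG32581 was not tested.

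For muscle, 1 read against 441 gives a ratio of 0.00197 after correction for size factors, with a 95% exact counting interval of 4.98e-05 to 0.0110. The 0 reads in heads, taken as up to 3 reads over the group, put CG32581 at least 331-fold lower in esc E(z) heads than in WT heads, and the 95% exact counting limit used for muscle puts it at least 268-fold lower. These intervals and limits cover counting error only. On the log2 scale with a pseudocount of 1, and with the group without reads held at 3 reads, the ratios were -6.62 in muscle and -7.42 in heads. Past a log2 ratio of -2, 0.123% of 8968 genes were lower in esc E(z) muscle and 0.163% of 9200 genes in esc E(z) heads, and past 2 the shares that were higher were 0.1% and 0.0435%, among genes with a mean of both groups of at least 10. These shares are the background of the contrast for which CG32581 was chosen, and nothing is read from them.

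An on/off difference, with a group mean of at least 10 in WT and under 1 in the mutant, was seen for 2 of 8968 genes in esc E(z) muscle (0.0223%) and for 10 of 9235 genes in esc E(z) heads (0.108%). CG32581 and CG31683, a gene on chromosome 2L, were off in both tissues. CG31683 had authors' means of 14.3 in the WT muscle and 12.8 in the WT heads of esc E(z), and of up to 32.1 and 32.8 in the other WT groups of muscle and heads. With the WT mean raised to at least 50, CG32581 was the only gene off in muscle and 1 of 3 in heads, counts given without their share over all genes. CG32581 was chosen for this difference, so nothing is read from its place in any of these counts.

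**Figure D1:**
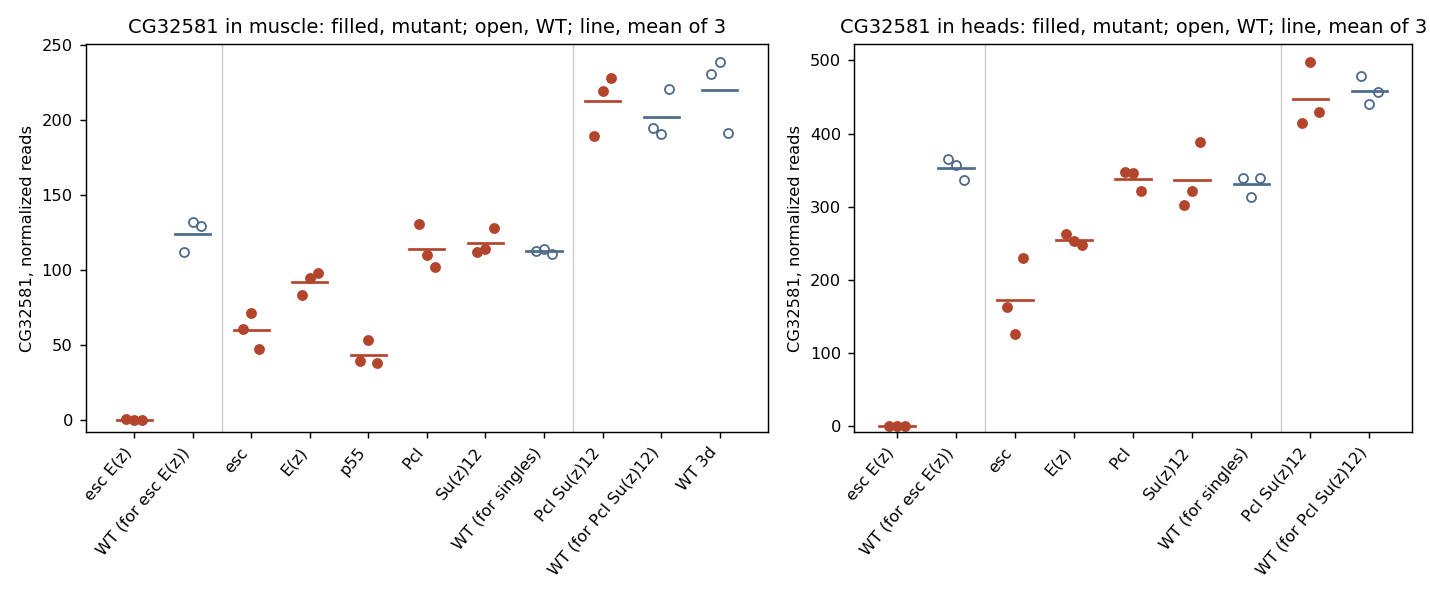
Normalized reads of CG32581 (vertical axes, linear) in each library of muscle (left) and heads (right), with filled points for mutants, open points for WT and a line at the mean of 3 libraries; grey lines separate sets of tables with different WT groups. The esc E(z) libraries lie between 0 and 0.826, and esc, E(z) and p55 libraries lie below all libraries of their WT group.

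In single mutants of the same 2 genes the transcript was present at lower levels than in WT. In esc muscle, CG32581 had 60.7, 71.8 and 47.8 normalized reads, against 113, 114 and 111 in the WT muscle of the single mutants. The authors' means give a ratio of 0.534 and a log2 ratio of -0.89. In esc heads it had 163, 126 and 230 normalized reads, against 339, 314 and 339 in WT heads, a ratio of 0.523 and a log2 ratio of -0.93. All esc libraries lay below all WT libraries in both tissues, as did 10.7% of 7095 genes in muscle and 9.22% of 6800 genes in heads. These shares are over genes with a mean of both groups of at least 10 and group means of at most 500, for which the reads could be recovered.

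In E(z) muscle, CG32581 had 83.2, 94.7 and 97.9 normalized reads against the same WT muscle libraries, a ratio of 0.816 and a log2 ratio of -0.29. In E(z) heads it had 262, 253 and 248, a ratio of 0.769 and a log2 ratio of -0.38 against the same WT heads. The E(z) libraries lay below all WT libraries in both tissues, where 9.91% of 7103 genes in muscle and 9.48% of 6793 genes in heads did so. The decrease was smaller than in esc in both tissues. In the esc E(z) double mutant the level was below that of either single mutant by far more than the spread of any of these groups, but the double and the single mutants were set against different WT groups and the difference was not tested.

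The p55 mutant was measured in muscle alone. There CG32581 had 39.2, 53.6 and 38.3 normalized reads, a ratio of 0.388 and a log2 ratio of -1.35 against the WT muscle of the single mutants. All p55 libraries lay below all WT libraries, as did 9.18% of 7100 genes. After esc E(z), p55 had the lowest level in muscle.

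No such decrease was seen with Pcl or Su(z)12. In Pcl muscle, CG32581 had 131, 110 and 102 normalized reads, and in Su(z)12 muscle 112, 114 and 128, around the 111 to 114 of WT muscle, with log2 ratios of 0.02 and 0.07. In heads, Pcl libraries had 347, 346 and 322 and Su(z)12 libraries 302, 321 and 388, around the 314 to 339 of WT heads, with a log2 ratio of 0.03 for both. The libraries overlapped with WT in all 4 comparisons, in which all 3 mutant libraries lay below WT for 9.26% (Pcl muscle), 10.9% (Su(z)12 muscle), 10.4% (Pcl heads) and 10.2% (Su(z)12 heads) of genes.

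The Pcl Su(z)12 double mutant likewise overlapped with its WT groups. It had 189, 220 and 229 normalized reads in muscle, against 195, 191 and 221 in WT, a log2 ratio of 0.07. In heads it had 414, 498 and 430, against 478, 440 and 457 in WT, a log2 ratio of -0.04. Of the genes tested, 10.2% in muscle and 9.98% in heads lay below WT in all libraries. Of 13 comparisons of a mutant with WT, CG32581 was thus lower in every library in 7 and overlapped with WT in 6. The 7 include esc E(z), where 10.8% of 7025 genes in muscle and 10.6% of 6523 genes in heads were lower in all libraries. How many genes reach such a count was not determined, and nothing is read from it because the gene was chosen from these comparisons. Comparisons of single mutants share a WT group within a tissue and are not independent of each other.

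**Figure D2:**
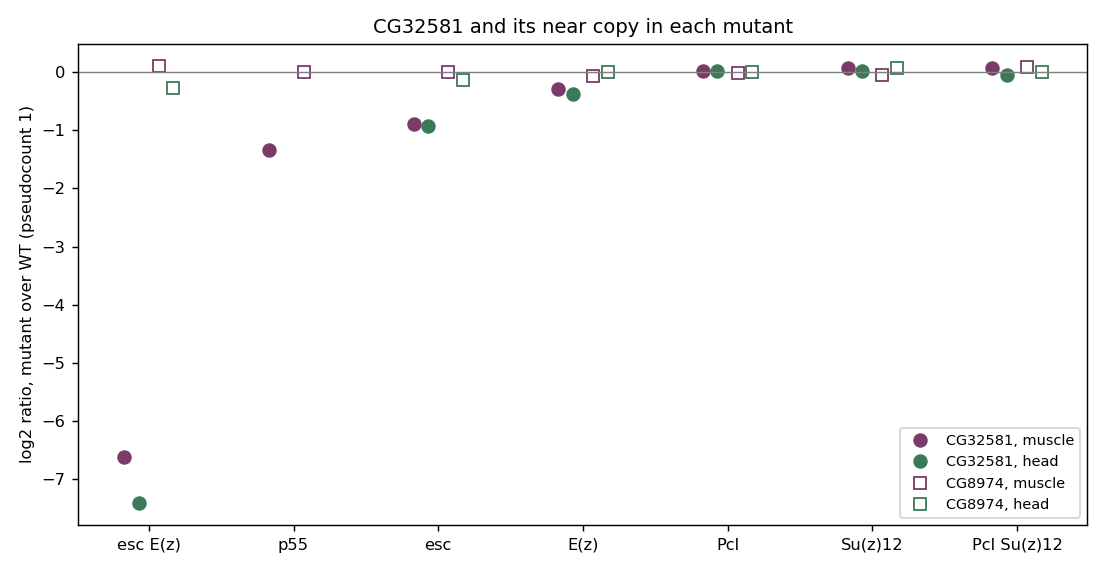
Log2 ratio of mutant over WT (vertical axis, pseudocount of 1) for CG32581 (filled circles) and CG8974 (open squares) in muscle (purple) and heads (green); the esc E(z) head group without reads is held at 3 reads. CG32581 stands at -6.62 and -7.42 in esc E(z), -1.35 in p55 muscle, and -0.89 and -0.93 in esc, while CG8974 stays between -0.27 and 0.11.

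The spread within esc was wider than within WT. The highest esc head library had 1.83 times the normalized reads of the lowest, and the highest esc muscle library 1.5 times. In the WT heads and WT muscle of the single mutants these were 1.08 and 1.03 times, and in the other muscle WT groups 1.16 to 1.25 times. Pcl muscle spanned 1.28 times and Su(z)12 heads 1.29 times. The p55 libraries spanned 1.40 times, and the E(z) libraries 1.06 times in heads and 1.18 times in muscle.

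With age the gene hardly moved on the authors' scale. WT muscle at 30d had 195, 191 and 221 normalized reads, against 231, 239 and 192 at 3d, and the libraries overlapped, with a log2 ratio of -0.12, where 22.9% of 6405 genes were lower at 30d in all libraries. The sum of all means was 7305280 at 30d and 11591935 at 3d, and with both groups scaled to equal sums the log2 ratio was 0.54, so its direction depends on the scaling.

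For the order of levels across tables, which were normalized separately, the means were divided by the summed means of the group and multiplied by 1000000. In muscle the order was esc E(z) (0.0552), p55 (9.57), esc (13.3), 3d WT (19.0), E(z) (20.5), the WT groups of esc E(z) (24.5) and of the single mutants (24.9), Pcl (25.7), Su(z)12 (25.9), the WT group of Pcl Su(z)12 (27.7) and Pcl Su(z)12 (29.0). The libraries of esc E(z) stood clear below those of p55, those of esc clear below 3d WT and those of E(z) clear below the WT group of esc E(z), while all other neighbors in this order overlapped.

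In heads the order was esc E(z) (0), esc (34.7), E(z) (51.5), Pcl Su(z)12 (58.2), the WT groups of esc E(z) (59.6), of Pcl Su(z)12 (61.5) and of the single mutants (67.5), Pcl (69.2) and Su(z)12 (69.6). The libraries of esc E(z), esc and E(z) each stood clear below the next group, and all further neighbors overlapped. In every genotype with both tissues, save esc E(z), this relative level was higher in heads than in muscle.

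The near copy CG8974 was present in every group. It had 345, 315 and 301 normalized reads in esc E(z) muscle, against 282, 301 and 306 in WT, a log2 ratio of 0.11 with overlapping libraries. It had 436, 444 and 489 in esc E(z) heads, against 494, 585 and 576 in WT, a log2 ratio of -0.27 without overlap. Among genes with group means of at most 500, 10.6% were lower in esc E(z) heads in all libraries. CG8974, with a mean of 552 in these WT heads, is outside that set. Reads of the second copy were thus present in the mutant that lacked those of the first, with all head libraries below WT.

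In the 5 single mutants of muscle the authors' mean of CG8974 lay between 307 and 320, against 319 in WT. Over all mutants its log2 ratio ran between -0.06 and 0.11 in muscle and between -0.27 and 0.08 in heads. Its reads in 3 groups could be split in more than 1 way (esc muscle, Pcl heads and the WT heads of the single mutants), where the most even split was taken.

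Counted together, the pair gives a share that needs no scaling between libraries. CG32581 made up 0.0780% of the pair's 1282 reads in esc E(z) muscle (95% exact interval, 0.00197% to 0.434%), against 29.6% ± 1.06 (SD, n = 3) in WT. In esc E(z) heads it had 0 of 1285 reads, which allows a share of up to 0.233% at 3 reads and of up to 0.287% by the 95% exact interval, against 39.1% ± 2.96 (SD, n = 3) in WT. The share was 15.7% ± 2.38 in esc muscle, 23.1% ± 2.0 in E(z) muscle and 12.0% ± 2.24 in p55 muscle, against 26.3% ± 2.64 in the WT muscle of the single mutants (SD, n = 3 each). In heads it was 26.5% ± 5.18 in esc and 33.0% ± 0.673 in E(z), against 39.1% ± 2.07 in WT (SD, n = 3 each). The CG8974 reads of these WT heads and of esc muscle are the most even split, so their shares and SDs depend on that choice. Within each tissue, esc E(z), esc, E(z) and, in muscle, p55 stood in the same order by this share as by their levels.

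Per length the copies were closer than by reads. In the WT muscle of esc E(z), CG32581 had 87.2 normalized reads per kb of annotated exon and CG8974 163, and in the WT heads 247 and 304. Per 100 windows found nowhere else, the values were 15.6 and 24.4 in muscle and 44.3 and 45.5 in heads. The annotation used for counting is not given in the sources used here, so these lengths are those of RefSeq.

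**Figure D3:**
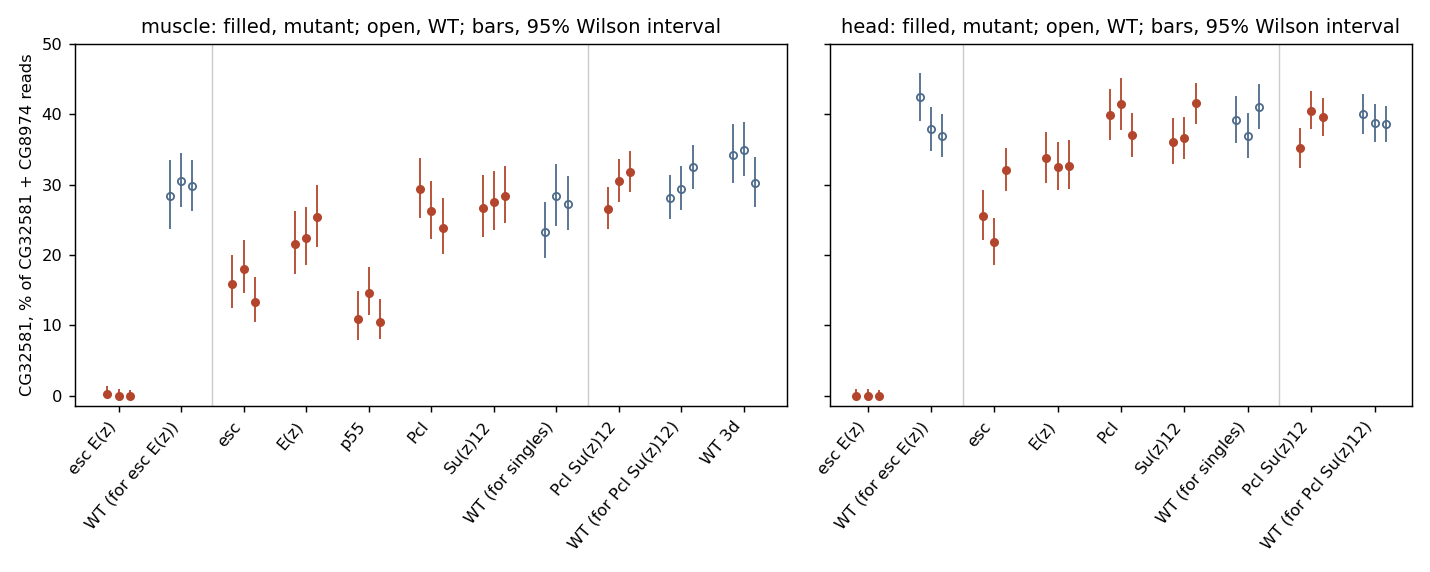
Share of CG32581 in the reads of CG32581 and CG8974 together (vertical axis, percent) in each library of muscle (left) and heads (right), with 95% Wilson intervals, filled points for mutants and open points for WT. The share is at most 0.239% in esc E(z) libraries, and its mean is 26.3% to 33.2% in the WT groups of muscle and 39.1% in each WT group of heads. In esc muscle, Pcl heads and the WT heads of the single mutants, CG8974 reads are the most even of several splits.

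Another member of the family by protein likeness, CG32847 on chromosome 3L, 47.5% identical to CG32581 over 56.2% of its length, was hardly detected in any group. Its authors' means ran between 0 and 0.558 in muscle and between 0.399 and 2.54 in heads.

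Genes on either side with a mean of both groups of at least 10 kept reads in esc E(z). The pseudogene CR44383, below that mean, had 0 reads there and is given apart below. Of the 27 other genes within 50 kb, all were in the tables, and 22 in muscle and 21 in heads had a mean of both groups of at least 10 in the esc E(z) comparison. Of these, 0 passed a log2 ratio of 2 in either direction in either tissue. Over all genes tested, 0.123% were lower and 0.1% higher in muscle, and 0.163% and 0.0435% in heads, so nothing is read from this count. The median log2 ratio of these neighbors was -0.07 in muscle and 0.05 in heads, against 0.00 and -0.01 over all genes tested. The lowest was -0.53 in muscle and -0.94 in heads. In the other 11 comparisons of a mutant their log2 ratios ran between -0.79 and 0.76. With age, 1 of these genes passed the fold, sun, a subunit gene of the mitochondrial ATP synthase, at -2.81 for 30d over 3d WT muscle, as did 0.99% of 9294 genes in that direction.

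Among neighbors with few reads, the pseudogene CR44383 (FBgn0265533, chrX:15796477-15796897, plus strand) lies between the copies and ends 10 bases from CG32581. It had 0 reads in all 6 esc E(z) libraries, against 3.65, 5.54 and 5.70 normalized reads in WT muscle and 11.8, 11.1 and 11.3 in WT heads. At 3 reads over the group, that is at least 6.64-fold lower in esc E(z) muscle and at least 10.7-fold lower in esc E(z) heads. In esc it had 1.06, 3.04 and 1.65 in muscle, against 4.56, 4.96 and 7.33 in WT, and 2.18, 3.96 and 2.42 in heads, against 12.5, 12.8 and 10.8 in WT. Its libraries lay below WT in esc of both tissues and in E(z) heads, as did those of CG32581, and also in Pcl Su(z)12 heads, where CG32581 overlapped with WT. Among genes with a mean of both groups of at least 10, which CR44383 did not reach in esc, 9.22% to 10.7% did so in these comparisons. The libraries do not keep strand, and whether reads of CR44383 stem from transcripts of CG32581 was not tested. In E(z) and p55 muscle the libraries of CR44383 overlapped with WT. Blocks of CR44383 matched the gene Rhp on the far side of CG8974, the longest over 128 bases at 91.4% identity.

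On the other side CG15602 (FBgn0030694, chrX:15799426-15800961, plus strand) begins 263 bases beyond CG32581. It had 104, 101 and 101 normalized reads in esc E(z) muscle, against 124, 144 and 138 in WT, and 90.9, 100 and 109 in esc E(z) heads, against 152, 137 and 118 in WT. Its log2 ratios were -0.41 and -0.43, and its libraries lay below WT in both tissues, where 10.8% of 7025 genes in muscle and 10.6% of 6523 genes in heads did so. In all single mutants its libraries overlapped with WT, and they lay below WT also in Pcl Su(z)12 muscle. The edge of the duplicated block, at 15799688, lies within CG15602.

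**Figure D4:**
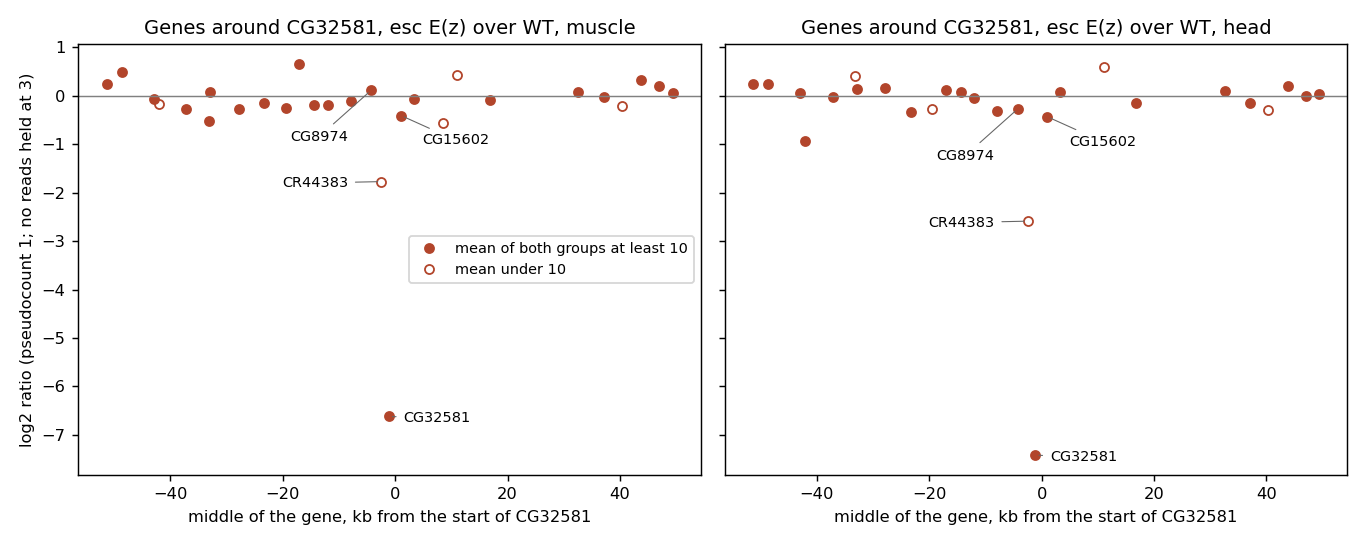
Log2 ratio of esc E(z) over WT (vertical axis, pseudocount of 1) against the middle of each gene in kb from the start of CG32581 (horizontal axis) in muscle (left) and heads (right), with filled points for genes with a mean of both groups of at least 10 and open points for the others; groups without reads are held at 3 reads. CG32581 lies at -6.62 and -7.42 and the pseudogene CR44383 at -1.77 and -2.59, while the other genes with filled points lie between -0.94 and 0.67.

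The pathway in which such ligases act was described by 24 listed genes of ER-associated degradation and ER protein folding, of which 23 were found in the tables and 22 had a mean of both groups of at least 10. Of these, 0 of 22 passed in esc E(z) a log2 ratio of 2 in either direction in either tissue. Among all genes tested, 0.123% passed it lower and 0.1% higher in muscle, and 0.163% and 0.0435% in heads. Nothing is therefore read from the count of the list. The median log2 ratio was 0.08 in muscle and 0.09 in heads, against 0.00 and -0.01 over all genes. The highest in muscle were the ER chaperones Gp93, with authors' means of 1661 and 1369 in esc E(z) and WT and a log2 ratio of 0.28, and Hsc70-3, at 0.22. The lowest in muscle were Ufd1-like, which serves the extraction of ubiquitylated proteins, at -0.21, and its partner ATPase TER94, at -0.13.

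In heads the highest were the lectin chaperone Cnx99A at 0.26 and the protein disulfide isomerase Pdi at 0.24, and the lowest were CG8974 itself at -0.27 and the ER stress sensor Atf6 at -0.10. In the other mutants the log2 ratios of listed genes ran between -0.72 (Ufd1-like) and 0.91 (Gp93). Without the paralogs of CG32581 the medians were 0.07 and 0.09.

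The genes with the pattern most like that of CG32581 were sought by Pearson's r of log2(mean + 1) over the 20 groups, after the mean of each tissue was subtracted, among 10152 genes with a highest group mean of at least 10. These points share WT groups and tables, so r is a description. The highest were CR44383 (r = 0.93), the pseudogene CR32745 (chrX:6280233-6280752, r = 0.91), APC7 (chrX:6597088-6599699, r = 0.89), CG31683 (chr2L:20447734-20449964, r = 0.88) and CG7349 (chrX:18894446-18896581, r = 0.88).

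APC7, a subunit gene of the anaphase-promoting complex, had 3.30, 4.76 and 3.24 normalized reads in esc E(z) muscle, against 53.5, 43.5 and 47.0 in WT, and 6.65, 13.1 and 5.04 in esc E(z) heads, against 53.8, 66.8 and 46.2 in WT. Its authors' means were 16.8 in esc muscle and 17.6 in p55 muscle, against 35.7 in WT, and 23.5 in esc heads, against 37.7 in WT. Its means were thus lower than in WT in esc E(z), esc and p55, as were those of CG32581, but it was not absent. APC7 was chosen for its likeness over these same groups, so nothing is read from the shared direction.

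CG31683 had 0 reads in esc E(z) and also differed in Su(z)12, with authors' means of 6.66 in muscle, against 32.1 in WT, where CG32581 overlapped with WT. The choice of these 5 genes rests largely on the esc E(z) groups. Without both of them, 0 of the 5 genes stayed among the 5 most alike. Ubi-p5E (chrX:6276876-6279647), a polyubiquitin gene, then came first with r = 0.95. CR44383 was at rank 16 (r = 0.87) and APC7 at rank 43 (r = 0.85), while CR32745, CG31683 and CG7349 fell to ranks 4758, 9741 and 5228.

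**Figure D5:**
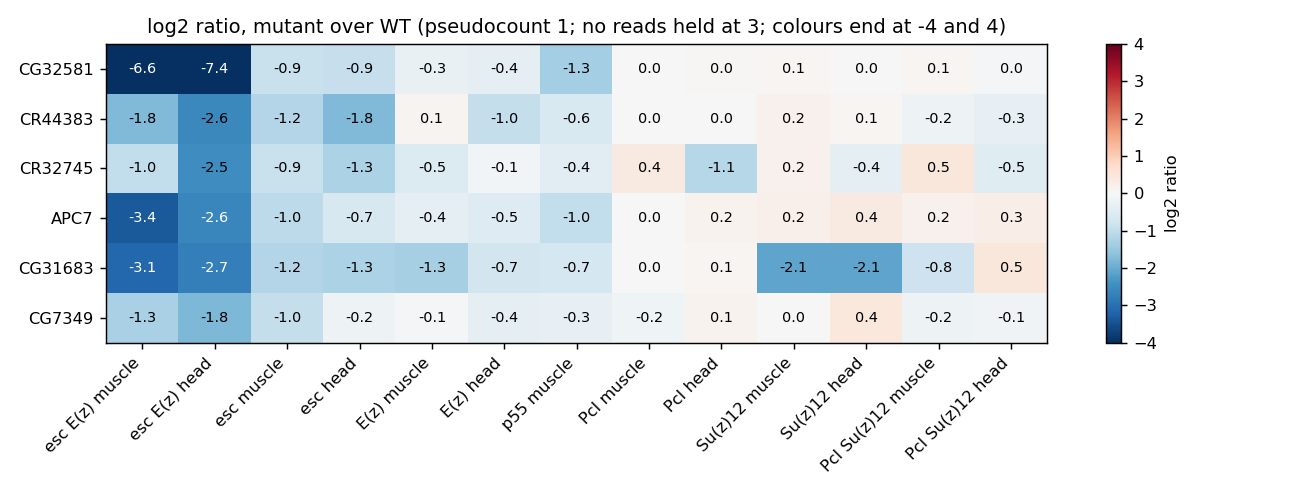
Log2 ratio of mutant over WT (pseudocount of 1, groups without reads held at 3 reads; colours and printed values, to 1 decimal) for CG32581 and the 5 genes with the most similar pattern (rows) in 13 comparisons (columns). All 6 genes are lowest in an esc E(z) column, and CG31683 is also low in Su(z)12. The 5 genes were chosen over groups that include esc E(z), so nothing is read from their low values there.

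Checks of the series gave these ranges. The deleted genes themselves were lower in every library than in WT for esc (log2 ratio of -1.52 in muscle and -0.73 in heads), E(z) (-0.14 and -0.23) and p55 (-0.70 in muscle), and in esc E(z) for esc in muscle (-1.12) and E(z) in heads (-0.28), while esc in heads (-0.29) and E(z) in muscle (-0.26) overlapped with WT there. In the comparisons without overlap, between 9.18% (p55 muscle) and 10.8% (esc E(z) muscle) of genes tested lay below WT in all libraries. For Pcl and Su(z)12 the libraries overlapped with WT in every comparison. A transcript that keeps reads outside a deletion can hide it, but where the reads of these genes lie was not tested. None of the 5 deleted genes is on the X chromosome. On the same relative scale, muscle markers summed to between 4731 and 10228 in muscle and between 1115 and 1374 in heads, and head markers to between 45586 and 53432 in heads and between 286 and 339 in muscle. All listed markers of muscle, head and fat body were above 1 in every group, and fat body markers were high in both tissues. Testis markers summed to at most 5.08 in any group. The effect of other tissues on the level of CG32581 was not tested, and in bulk samples fewer cells and less RNA per cell cannot be told apart. A difference between stocks at or near CG32581 and an effect of the deletions on it also cannot be told apart with these data.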

How the data were processed

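RNA was selected by polyA tails and made into libraries with a kit that does not keep strand, and single-end reads of 100 bp were aligned to dm6 with STAR and counted on genes with HTSeq (intersection-strict, no strand). The authors normalized the counts with DESeq and deposited 14 mRNA tables. The normalized signal that the authors deposited is the mean over the 3 libraries of each group, and reads of near-identical copies can be lost or split in such counting. The tables also hold the authors' fold changes, p-values and adjusted p-values of each comparison, which were not used, nor were 2 tables of small RNA.

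A mean is a sum of whole reads, each worth 1 over 3 times the size factor of its library. These steps were read from genes with 1 read and refined by least squares (size factors between 0.727 and 1.55), and the whole reads of 3 libraries that give the mean within the rounding of 10 digits were sought for means up to 1000. Between 84.9% and 100% of means up to 500 had 1 solution per group and 0% had none. The procedure was tested on simulated data. Libraries recovered in this way carry no replicate number. Depth after normalization, as the sum of means, was 4455811 to 11591935 in muscle and 4842591 to 7683336 in heads.

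Log2 ratios of tested over WT means had a pseudocount of 1, and a group without reads was held at 3 reads. Past the fold means a log2 ratio of at most -2 or at least 2 with a mean of both groups of at least 10. Paralogs were genes with a RefSeq protein at least 40% identical over at least 50% of CG32581 (BLAST+ 2.17.0). Named were CG32581, its paralogs, the mutated genes, genes within 50 kb past the fold and the nearest on each side, the 5 genes most alike and, of the ER list, the 2 highest and 2 lowest. Rhp, Ubi-p5E and CG14536, which was not found, are named beside these and were chosen after values were seen. Symbols came from the tables, positions from Ensembl BDGP6.54 and RefSeq, both of the dm6 assembly. The gene and the lists were chosen with earlier results of these data known. Alternatives were other pseudocounts (0.1 and 10), equal sums, centring on the median, summed reads, each library left out and other thresholds. Python 3.11.15, numpy 2.4.6, scipy 1.17.1, Biopython 1.88 and matplotlib 3.10.9 were used.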

Additional observations from a re-analysis of the deposited data

How the results depend on the processing

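The log2 ratios of CG32581 kept their direction under every scaling in the comparisons in which its libraries did not overlap with WT. In esc E(z) muscle the value was -8.38 with a pseudocount of 0.1 and -3.71 with 10, and in esc E(z) heads -8.24 and -5.04, against -6.62 and -7.42 with 1, since the mutant is at or near 0. With each library left out in turn, the values ran between -6.69 and -5.92 in muscle, where leaving out the library with its single read holds the group at 3 reads, and between -7.45 and -7.06 in heads. Equal sums turned the age comparison to 0.54. The cause was not tested.

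Past the fold in esc E(z), 11 genes were lower and 9 higher in muscle and 15 lower and 4 higher in heads. A pseudocount of 10 left 7 and 2 in muscle and 9 and 2 in heads, and no filter on the mean gave 25 and 17 in muscle and 39 and 11 in heads. With the level for on raised to 50, 1 gene was off and 0 on in muscle, and 3 were off and 0 on in heads, against 2 off and 1 on in muscle and 10 off and 1 on in heads. Of the 5 genes most like CG32581, 1 stayed among the 5 with Spearman's rho and 0 without the esc E(z) groups, a setting chosen after seeing the data. Neighbors within 20 kb and the ER list without the paralogs gave the same counts past the fold in esc E(z), and with age 0 genes within 20 kb passed, against 1 within 50 kb. No paired analysis was possible because the tables hold group means and the recovered libraries carry no replicate number.

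With 3 libraries a group and reads that cannot be assigned where the copies are identical, these data limit CG32581 in esc E(z) to the bounds given and do not show that the gene is silent.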
